A study of Mus musculus with 8 samples.

Results

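A set of 7 chemokine ligand genes, Ccl1, Ccl3, Ccl4, Ccl5, Ccl22, Xcl1 and Cxcl10, was followed in RNA-seq libraries of regulatory T cells (Tregs). They were taken by gene name from the authors' table, in which 7 of 7 have a row among 19330 genes. The genes had been selected on their values in the same comparison, oxPAPC against control, which were known from an earlier look at these data. Their levels and fold changes in that comparison are therefore a description. Where calls of these genes are counted, the counts describe the selection and are no evidence for a change. The cells were polarized to Tregs in culture for 3 days, from splenic naive CD4+ T cells of mice whose genotype label is B6. The control group had 4 libraries of cells kept without oxPAPC, and the oxPAPC group had 4 libraries of cells kept with it. oxPAPC is the mixture of products formed when the phospholipid PAPC is oxidized. The sources used here give neither the age of the mice nor the dose of oxPAPC. No label ties a replicate to its own mouse or culture, and the p-values therefore rest on the spread among these 8 libraries, which may be technical.

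Chemokines are small secreted proteins that bind G protein-coupled receptors and direct the movement of leukocytes along a gradient. CC chemokines have a pair of adjacent cysteines near the start of the mature protein, CXC chemokines have a residue between that pair, and XCL1 of the C family lacks one of the disulfide bonds of the others. In T cells, receptor stimulation switches on CCL3, CCL4, CCL5, CCL1 and XCL1, while CXCL10 is a classical product of cells exposed to interferon. CCL22 is best known from dendritic cells and macrophages, and it attracts Tregs and type 2 helper cells through CCR4.

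The 8 libraries held 14017583 to 21619731 counts each. All 11 genes of a CD4 T cell and Treg list were present in the table, and Foxp3, the lineage-defining factor of Tregs, had 117 to 199 CPM in control libraries, against 88.4 to 210 CPM with oxPAPC. CPM stands for counts scaled to a common library size after TMM normalization. Each library is bulk RNA, so a change in the number of cells that make a chemokine cannot be told apart from a change in RNA per cell.

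The inflammatory CC chemokines of chromosome 11, Ccl3, Ccl4 and Ccl5, were all higher with oxPAPC, and Ccl3 and Ccl4 by the most. Ccl3 encodes MIP-1 alpha, which draws in monocytes and effector T cells. Ccl3 had 0.332, 0.377, 0.548 and 0.643 CPM in control replicates 1 to 4, and 2.39, 2.84, 8.42 and 6.89 CPM in oxPAPC replicates 1 to 4. The groups did not overlap, and oxPAPC replicates 3 and 4 stood well above replicates 1 and 2. Its fitted log2 fold change by edgeR was 3.39 ± 0.44 (SE).

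Ccl4 encodes MIP-1 beta, a close relative of MIP-1 alpha that is likewise released by activated T cells. Ccl4 had 0.864, 0.528, 0.776 and 1.19 CPM in control libraries, against 8.80, 6.54, 10.5 and 7.65 CPM with oxPAPC, each in the order of replicates 1 to 4. The lowest oxPAPC library was above the highest control library, and the 4 oxPAPC libraries lay closer together than for Ccl3. The log2 fold change was 3.28 ± 0.27 (SE). Its means were 0.841 ± 0.276 CPM and 8.38 ± 1.71 CPM (SD, n = 4 each).

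Ccl5, or RANTES, is a late product of activated T cells and of natural killer and CD8 T cells. Ccl5 had 0.332, 0.302, 0.411 and 0.230 CPM in control libraries, against 0.820, 0.528, 1.10 and 0.608 CPM with oxPAPC. The groups did not overlap, but the values rest on 23 counts in all control libraries and 56 in all oxPAPC libraries. The ratio of these sums, scaled by library size, was 2.47 with a 95% interval of 1.5 to 4.2 (Clopper-Pearson, for counting error only). Ccl5 was removed by the filter on low counts, and a fit without that filter gave a log2 fold change of 1.27 ± 0.42 (SE).

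**Figure D1:**
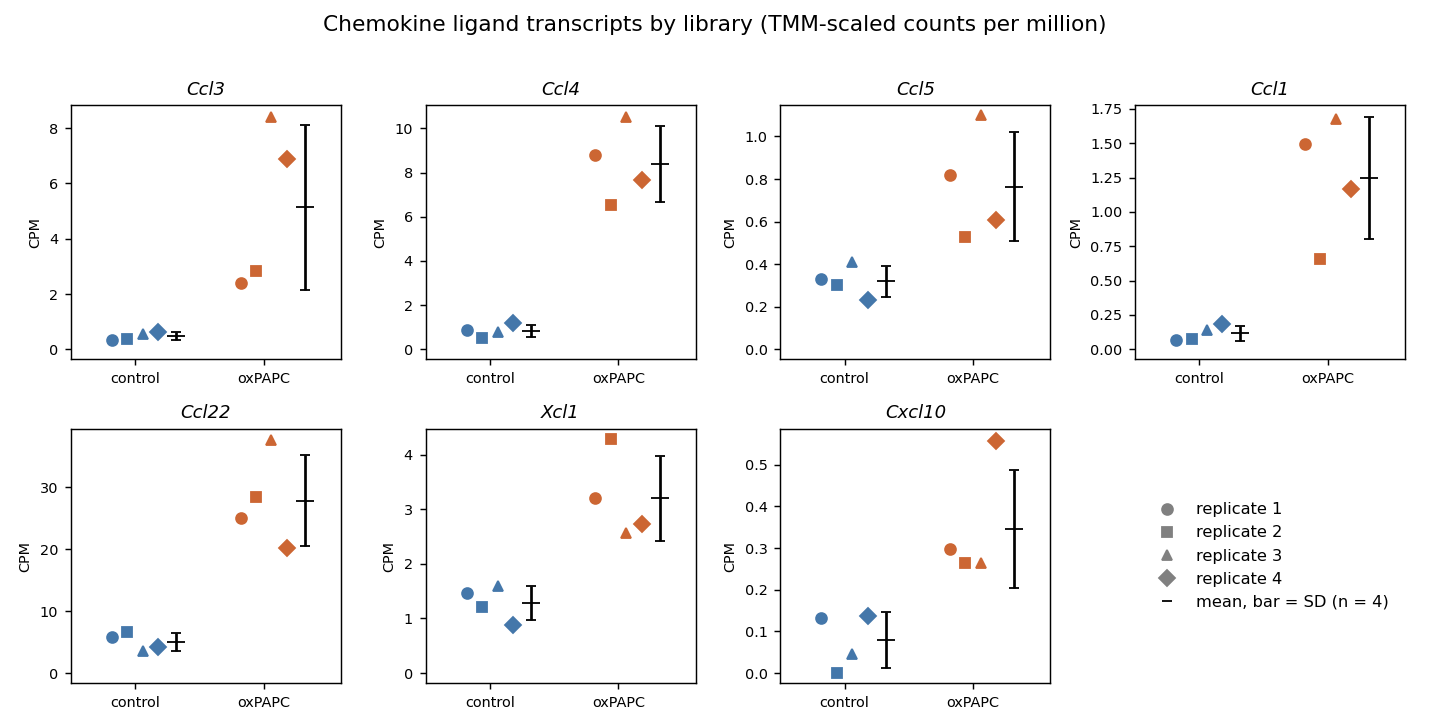
CPM of each of the 7 ligands in the 4 control (blue) and 4 oxPAPC (orange) libraries, one panel per gene, with the symbol showing the replicate and the black bar the mean and SD. In each panel the lowest oxPAPC library lies above the highest control library.

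Ccl1 and Ccl22 encode ligands of receptors that Tregs and type 2 helper cells carry. Ccl1, the ligand of CCR8, was almost silent in control libraries, with 0.0664, 0.0754, 0.137 and 0.184 CPM, which came from 9 counts in all. With oxPAPC it had 1.49, 0.660, 1.68 and 1.17 CPM. Replicate 2 was the lowest of the oxPAPC libraries and still above the highest control library. The log2 fold change was 3.28 ± 0.47 (SE), and the ratio of summed counts was 10.3 with a 95% interval of 5.17 to 23.1 (Clopper-Pearson, for counting error only).

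Of the 7 genes, Ccl22 had the most counts in every library. Ccl22 had 5.78, 6.63, 3.56 and 4.18 CPM in control libraries, against 25.0, 28.5, 37.7 and 20.2 CPM with oxPAPC. The groups lay far apart, with means of 5.04 ± 1.42 CPM and 27.9 ± 7.38 CPM (SD, n = 4 each). The log2 fold change was 2.49 ± 0.23 (SE). The gene of another CCR4 ligand, Ccl17, lies on the same part of chromosome 8 and is described below with the other ligands.

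Xcl1, or lymphotactin, is released by activated T and natural killer cells and attracts dendritic cells that carry XCR1. Xcl1 had 1.46, 1.21, 1.6 and 0.873 CPM in control libraries, against 3.21, 4.29, 2.56 and 2.74 CPM with oxPAPC. Here oxPAPC replicate 2 was the highest and replicate 3 the lowest, and the groups again did not overlap. The log2 fold change of 1.31 ± 0.29 (SE) was the smallest among the members that passed the filter. The gene shares 98 exon bases with Gm20743, a noncoding gene of the opposite strand, which went the other way, from 4.27 to 6.71 CPM in control to 1.5 to 3.5 CPM in oxPAPC libraries (log2 fold change -1.34, edgeR adjusted p = 0.00684). The sources used here do not say if the strand was used in counting, and reads of the shared bases cannot be assigned to either gene.

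Cxcl10, also called IP-10, is the interferon-inducible ligand of CXCR3. It was close to the limit of detection. Cxcl10 had 2, 0, 1 and 3 counts in control and 4, 4, 6 and 11 counts in oxPAPC libraries, or at most 0.138 CPM and 0.264 to 0.557 CPM. The ratio of summed counts was 4.23, and its 95% interval of 1.69 to 12.6 is wide (Clopper-Pearson, for counting error only). In the fit without a filter its log2 fold change was 2.00 ± 0.66 (SE). Cxcl10 shares 133 exon bases with Art3 of the opposite strand, which had at most 0.462 CPM in any library.

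In all 7 genes each oxPAPC library was above each control library, a pattern seen in 8.69% of the 19330 genes of the table. Of the 7 genes, 5 passed the filter and these 5 were all called higher by edgeR's quasi-likelihood test at an adjusted p under 0.05, against 6.75% of the 16434 genes tested that were called higher and 13.3% called in either direction. Nothing is read from these counts, since the genes were selected on this comparison. The filter asks for 4 libraries at or above a level of 0.575 CPM. Ccl1 reached that level in 0 control and 4 oxPAPC libraries, Ccl3 in 2 and 4, and Ccl4 in 3 and 4, so these 3 genes passed only through the group in which they were high. Ccl22 and Xcl1 reached it in all libraries, Ccl5 in 3 oxPAPC libraries and Cxcl10 in 1. In the DESeq2 results of the authors' deposited table, 5 of the 7 had an adjusted p under 0.05, and Ccl5 and Cxcl10 had adjusted p of 0.0751 and 0.0926.

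**Figure D2:**
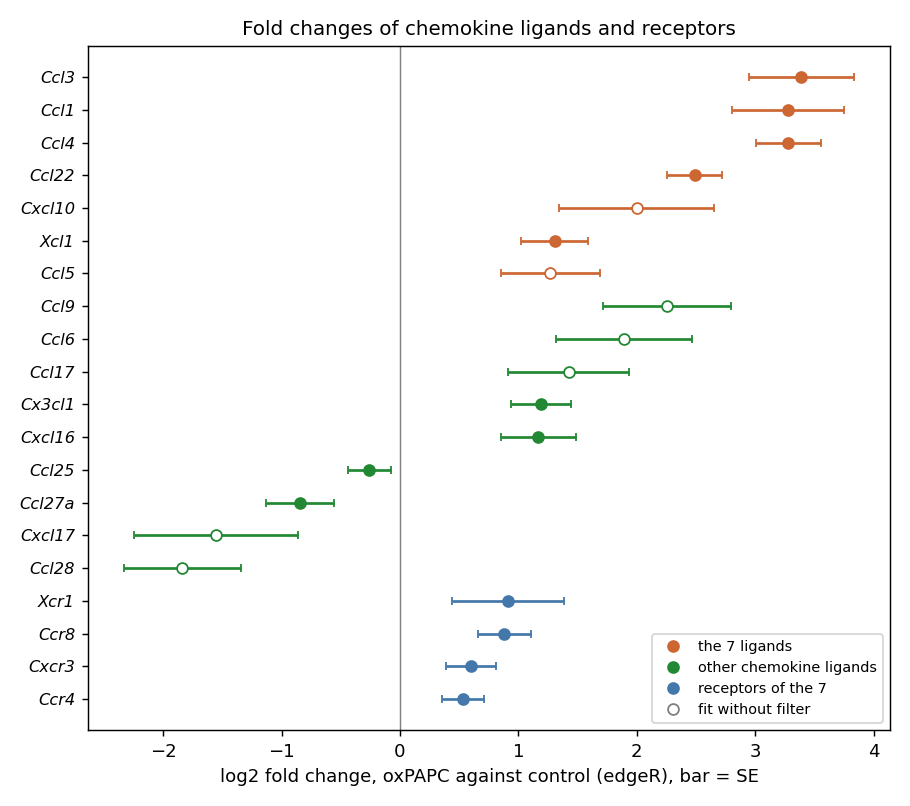
Log2 fold change of oxPAPC against control by edgeR with its SE, for the 7 ligands (orange), other chemokine ligands (green) and receptors of the 7 (blue). Open symbols come from the fit without a filter on low counts. The 7 ligands lie between 1.27 and 3.39, and Ccl20, at 0 in control libraries, is not drawn.

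Levels of different genes were compared as CPM per kilobase of the longest coding transcript of each gene in GENCODE M21. In control libraries the order was Xcl1 with 2.46 ± 0.610, Ccl22 with 2.27 ± 0.639, Ccl4 with 1.27 ± 0.418, Ccl3 with 0.620 ± 0.190 and Ccl5 with 0.599 ± 0.141 CPM per kilobase (SD, n = 4). Ccl1 followed with 0.189 ± 0.0903 and Cxcl10 with 0.0585 ± 0.05 CPM per kilobase. Each of the first 5 overlapped in range with its neighbour in this order, while Ccl5, Ccl1 and Cxcl10 did not overlap. In oxPAPC libraries Ccl4, at 12.7 ± 2.59, and Ccl22, at 12.6 ± 3.33 CPM per kilobase, had the highest means and did not differ beyond their spread. Ccl3 had 6.70 ± 3.89 and Xcl1 6.11 ± 1.49 CPM per kilobase, and the range of Ccl3 overlapped those of both Ccl22 and Xcl1. They came before Ccl1 with 2.04 ± 0.728, Ccl5 with 1.44 ± 0.482 and Cxcl10 with 0.256 ± 0.105. Ccl1 and Ccl5 overlapped, and Xcl1 had the highest mean of the control and the fourth of the oxPAPC libraries. Measured over all exons of a gene, Ccl1 had 0.527 CPM per kilobase in oxPAPC libraries and came after Ccl5 with 0.796, because its annotation holds a long noncoding variant with further exons.

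The summed level of the 7 ligands was 7.04 to 7.98 CPM per kilobase in control and 37.0 to 53.9 in oxPAPC libraries. Of this sum, Xcl1 made up 23.7% to 40.3% in control and 9.08% to 22.2% in oxPAPC libraries. Ccl4 made up 11% to 25.7% and 26.8% to 35.0%, without overlap between the groups. The share of Ccl22 overlapped, with 21.2% to 41.1% in control and 23.8% to 34.8% in oxPAPC libraries.

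**Figure D3:**
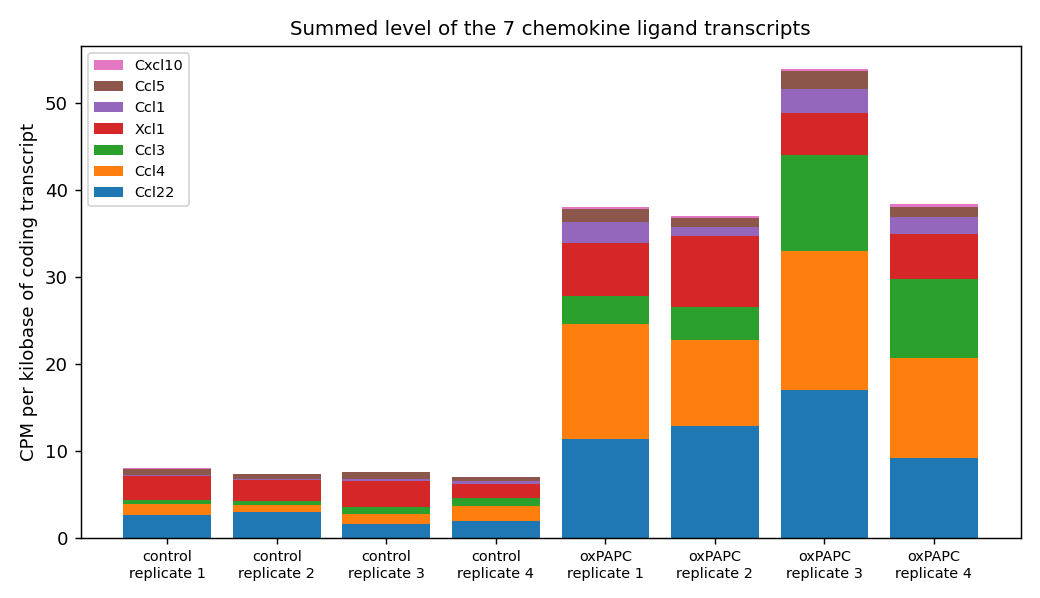
CPM per kilobase of coding transcript of the 7 ligands, stacked for each of the 8 libraries. The oxPAPC bars reach 37.0 to 53.9 and the control bars 7.04 to 7.98, with Ccl4, Ccl3 and Ccl22 filling most of the difference.

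The oxPAPC libraries differed among themselves. Replicate 3 was the highest of the 4 for 5 of the 7 genes, Ccl1, Ccl3, Ccl4, Ccl5 and Ccl22, whereas Xcl1 was highest in replicate 2 and Cxcl10 in replicate 4. The highest oxPAPC library exceeded the lowest by 3.53-fold for Ccl3 and by 1.61-fold for Ccl4, although these genes are neighbours. Gm26917, a noncoding gene, took 19.4% and 16.6% of the counts of oxPAPC replicates 1 and 2 and 9.51% and 9.35% of those of replicates 3 and 4, where Ccl3 was higher. With that share as a covariate the log2 fold change of Ccl3 was 2.95, and without oxPAPC replicate 3 it was 3.04.

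Coordinates of GRCm38 place 4 of the 7 genes on chromosome 11, all protein coding. Ccl5 lies at chr11:83525778-83530518, Ccl3 at chr11:83647844-83649355 and Ccl4 at chr11:83662584-83664683. Ccl3 and Ccl4 are transcribed away from each other across a gap of 13.2 kb. The annotated span of Ccl1, at chr11:82176657-82305690, takes in its long noncoding variant and ends 1220 kb from Ccl5. The RefSeq start site of Ccl1 is at chr11:82179812, farther from Ccl5. Ccl22 lies at chr8:94745590-94751699, Xcl1 at chr1:164931644-164935527 and Cxcl10 at chr5:92346638-92348889.

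The bases upstream of the start site are shown for 4 of the 7 ligands, to let their promoters be compared. Sequences come from RefSeq on GRCm38.p6, where 5 of the 7 genes were matched by symbol, and Ccl4 and Ccl5 were not. Letters run 5′ to 3′ on the strand of the gene. The stretch of Ccl22 stops at the start of the GENCODE gene, and that of Ccl1 lies before its coding transcript, inside the span of its long noncoding variant but in no exon. Capitals mark matches, on either strand, to any of 5 motifs: kappa B as GGGNNNNNCC, the interferon-stimulated response element core as GAAANNGAA, the interferon gamma-activated site GAS as TTCNNNGAA, AP-1 as TGANTCA, and the T-box as TCACAC.
Ccl1, chr11:82179813-82180062, minus strand: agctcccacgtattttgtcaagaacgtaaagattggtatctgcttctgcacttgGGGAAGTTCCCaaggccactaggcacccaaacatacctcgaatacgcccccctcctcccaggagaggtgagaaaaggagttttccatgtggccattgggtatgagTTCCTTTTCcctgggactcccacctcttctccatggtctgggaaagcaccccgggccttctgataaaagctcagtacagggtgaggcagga
Ccl3, chr11:83649379-83649628, minus strand: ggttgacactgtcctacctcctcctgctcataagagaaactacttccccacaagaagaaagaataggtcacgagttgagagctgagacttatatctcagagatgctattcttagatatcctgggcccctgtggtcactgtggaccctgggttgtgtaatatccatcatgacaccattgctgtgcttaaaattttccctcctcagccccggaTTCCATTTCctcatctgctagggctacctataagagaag
Ccl22, chr8:94745434-94745589, plus strand: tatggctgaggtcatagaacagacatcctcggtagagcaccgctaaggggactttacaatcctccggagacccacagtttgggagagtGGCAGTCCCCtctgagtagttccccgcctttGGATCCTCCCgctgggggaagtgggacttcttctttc
Cxcl10, chr5:92348890-92349139, minus strand: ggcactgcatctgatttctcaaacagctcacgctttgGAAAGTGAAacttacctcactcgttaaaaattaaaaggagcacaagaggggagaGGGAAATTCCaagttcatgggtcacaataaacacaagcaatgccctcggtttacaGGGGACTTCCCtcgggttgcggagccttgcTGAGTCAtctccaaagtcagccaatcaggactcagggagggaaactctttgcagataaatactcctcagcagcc

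Within 250 bases of the start site Cxcl10 held the most kinds of motif. It had the response element core GAAAGTGAA starting 213 bases before the start site, kappa B matches starting at 159, 104 and 103, of which the last 2 overlap, and an AP-1 match starting at 74. Ccl1 had a pair of overlapping kappa B matches starting at 196 and 195 and a response element core on the opposite strand at 91. Ccl3 held such a core at 39 and no other match, and Ccl22 held kappa B matches at 162 and 131. Xcl1 held 1 T-box match at 187. Over the same 250 bases, 45.8% of 32851 promoters of the RefSeq table hold the kappa B letters, 7.13% the response element core, 7.02% GAS, 6.75% AP-1 and 12.3% the T-box letters. A match says only that the letters are present.

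Other chemokine ligands were measured in the same libraries. Their list and the gene lists that follow were chosen with earlier results of these data known. Counts of calls in these lists are therefore a description. Of 31 listed ligands outside the 7, 10 are in the table and 4 passed the filter. Of these 4, Cx3cl1 and Cxcl16, the membrane-bound chemokines that are shed by ADAM proteases, rose, against 6.75% of all genes tested, and Ccl25 and Ccl27a did not pass. Ccl25, a gut and thymus chemokine, had 20.4 ± 3.97 CPM in control libraries, against 17.1 ± 3.39 CPM with oxPAPC (SD, n = 4 each, edgeR adjusted p = 0.393). Cx3cl1, which lies 20.3 kb from Ccl22, rose from 1.91 ± 0.460 to 4.34 ± 0.699 CPM (SD, n = 4 each), with an edgeR adjusted p of 0.00693. Cxcl16 rose from 0.705 ± 0.214 to 1.62 ± 0.319 CPM (SD, n = 4 each, edgeR adjusted p = 0.0259). It reached the level of the filter in 2 control and 4 oxPAPC libraries, and so passed the filter only through the oxPAPC group. Cxcl16 lost its call when control replicate 1, 2 or 3, or either of oxPAPC replicates 2 and 4, was left out (edgeR adjusted p from 0.0519 to 0.0861), and when the Gm26917 share described above was a covariate (0.0524). Ccl27a, a skin chemokine with near-identical gene copies whose reads could be shared, had 9.83 ± 2.59 and 5.52 ± 2.28 CPM (SD, n = 4 each, edgeR adjusted p = 0.0677). It passed downward with DESeq2 (0.0367), with voom quality weights (0.0297), and by edgeR without control replicate 3 (0.0306) or oxPAPC replicate 1 (0.0345).

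Without the filter, 5 of the 10 ligands in the table passed upward and 1 downward. Of all 19330 genes in that fit, 1118 passed upward and 1090 downward. Ccl20, the CCR6 ligand of the Th17 axis, had 0 counts in all 4 control libraries and 0.895, 0.132, 0.529 and 0.912 CPM in oxPAPC libraries. Against an assumed 3 counts over the control group, the 44 summed oxPAPC counts of Ccl20 gave a ratio of 14.9, scaled by library size. This ratio leaves out the counting error of the oxPAPC sum and the spread among the oxPAPC libraries. Ccl9 and Ccl6 lie between Ccl5 and Ccl3. Ccl9 had 0.0754 to 0.332 CPM in control libraries, against 0.441 to 1.39 CPM with oxPAPC (edgeR adjusted p = 0.0143 without the filter). Ccl6 had 0.0913 to 0.332 and 0.264 to 1.32 CPM (0.0456), with overlap between the groups. Every deposited gene has at least 5 counts in 2 or more libraries. Ccl20, Ccl9 and Ccl6 met that only through the oxPAPC group, in which they were high, so their upward calls are a description. Ccl17, 28.0 kb beyond Cx3cl1, had 0.207 ± 0.127 and 0.544 ± 0.153 CPM (SD, n = 4 each) and did not pass (edgeR adjusted p = 0.0848). Ccl28, a mucosal chemokine, fell from 0.797 ± 0.322 to 0.226 ± 0.12 CPM (SD, n = 4 each, edgeR adjusted p = 0.0243).

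Receptors of the ligands were measured in the same cells. Of 6 listed receptors 4 were tested, of which Ccr8 rose, against 6.75% of all genes tested that rose, and Ccr4, Cxcr3 and Xcr1 did not pass. Ccr8, the receptor of CCL1, had 37.9, 41.0, 52.7 and 49.3 CPM in control libraries, against 61.6, 55.0, 116 and 101 CPM with oxPAPC. The groups did not overlap, and oxPAPC replicates 3 and 4 were the highest, as for Ccl3. Its log2 fold change was 0.88 ± 0.22 (SE, edgeR adjusted p = 0.0173). Ccr8 lost its call when control replicate 1, control replicate 2 or oxPAPC replicate 4 was left out (edgeR adjusted p from 0.0516 to 0.0585).

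Ccr4, the receptor of CCL22, had 44.7 ± 2.74 CPM in control libraries, against 64.7 ± 18.0 CPM with oxPAPC (SD, n = 4 each, edgeR adjusted p = 0.0678). It passed when genes under a mean of 5 CPM were removed (0.0459), with DESeq2 (0.0444) and by edgeR without oxPAPC replicate 2 (0.0118). Cxcr3, the receptor of CXCL10, had 4.08 ± 0.145 and 6.18 ± 1.40 CPM (SD, n = 4 each, edgeR adjusted p = 0.0769), and passed with DESeq2 (0.0369) and by edgeR without oxPAPC replicate 2 (0.0409). Xcr1, a receptor of dendritic cells, had 0.0754 to 0.664 and 0.529 to 0.820 CPM and did not pass (edgeR adjusted p = 0.232). Of 9 other chemokine receptors tested, 1 rose, against 6.75% of all genes tested that rose. It was Ccr6, the receptor of CCL20, which rose from 34.3 ± 5.05 to 60.4 ± 11.2 CPM (SD, n = 4 each, edgeR adjusted p = 0.00449).

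**Figure D4:**
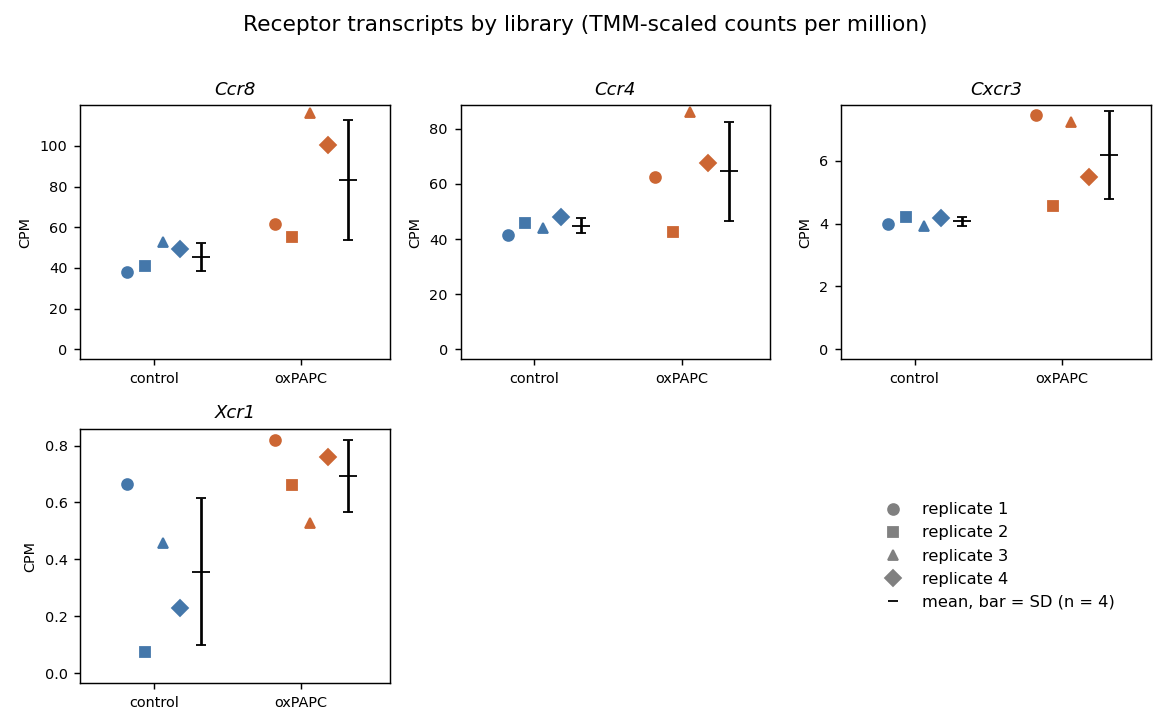
CPM of 4 receptors of the ligands in the 4 control (blue) and 4 oxPAPC (orange) libraries, with the symbol showing the replicate and the black bar the mean and SD. Ccr8 and Cxcr3 do not overlap between the groups, whereas for Ccr4 oxPAPC replicate 2 lies within the control range.

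Among 27 tested transcription factors that act on chemokine genes, 10 rose and 17 did not pass, against 6.75% of all genes tested that rose. This list too was chosen with earlier results known, and its count of calls is no evidence for an excess. Besides those described next, Jun, Junb, Irf9 and Stat2 rose, with log2 fold changes of 0.85, 0.65, 0.64 and 0.50, while Irf3 and Irf8, at 0.35 and 0.52, did not pass. Junb had passed narrowly (edgeR adjusted p = 0.0459) and lost its call in the fit without the filter (0.0508). Irf7 rose by 2.39 and Irf1 by 0.96 on the log2 scale, and Tbx21, which encodes T-bet, by 2.31 (edgeR adjusted p of 4.39e-06, 0.000539 and 1.98e-05). Irf4, a factor of activated T cells, rose by 1.43 (0.000189) and Eomes, a T-box factor, by 1.51 (0.000659). Batf, which pairs with IRF4 at AP-1 sites, rose by 0.93 (0.000837). None of the 5 NF-kB subunit genes passed. Nfkb2 had the highest log2 fold change, 0.65, with 144 ± 40.0 and 226 ± 65.7 CPM (SD, n = 4 each, edgeR adjusted p = 0.0784). Nfkb1, Rela, Relb and Rel had 0.24, 0.25, 0.06 and -0.23 (edgeR adjusted p of 0.398, 0.373, 0.874 and 0.364).

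Of 9 tested genes that restrain chemokine output, 2 rose, against 6.75% of all genes tested that rose, and 1 fell. The one that fell was Zfp36, which encodes tristetraprolin, a protein that destabilizes cytokine and chemokine mRNAs. It had 63.6 to 96.3 CPM in control libraries, against 39.7 to 51.9 CPM with oxPAPC (edgeR adjusted p = 0.00637, against 6.52% of all genes tested that fell). Socs1 and Nfkbie, feedback inhibitors of cytokine and NF-kB signalling, rose with log2 fold changes of 0.66 and 0.62. Both had passed narrowly (edgeR adjusted p of 0.0346 and 0.0324) and lost the call when replicate 1 or 3 of either group was left out, as did Socs1 for oxPAPC replicate 2 and Nfkbie for control replicate 4 (from 0.0512 to 0.0949). Of 6 tested genes for processing and carriage, Srgn and Sdc4 rose, against 6.75% of all genes tested that rose. Srgn went from 56.2 ± 11.6 to 99.2 ± 11.8 CPM (SD, n = 4 each, edgeR adjusted p = 0.00489). Srgn encodes serglycin, the proteoglycan on which chemokines are stored. Sdc4, a surface proteoglycan gene, rose from 10.2 ± 2.48 to 19.3 ± 3.88 CPM (SD, n = 4 each, edgeR adjusted p = 0.00717). Sdc1, of the same family, did not pass, with 1.51 to 2.86 CPM in control and 0.608 to 1.34 CPM in oxPAPC libraries (edgeR adjusted p = 0.0531), and here the oxPAPC libraries were the lower ones. The 5 tested genes of cytokines that T cells release beside chemokines all rose, against 6.75% of all genes tested, in a list chosen with earlier results known. Ifng, Il3, Csf2, Lta and Tnf had log2 fold changes of 4.6, 3.86, 3.21, 1.76 and 1.44 (edgeR adjusted p of 1.85e-06, 2.06e-05, 8.51e-05, 0.000486 and 0.000949). Il3 reached the level of the filter in 1 control and 4 oxPAPC libraries, and Csf2 in 3 and 4. Both passed the filter only through the group in which they were high.

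For the 4 ligands with a mean of at least 1 CPM, the genes nearest in pattern were sought among 14680 tested genes that also had such a mean. Likeness was the root mean square difference of centred log2 profiles over the 8 libraries, which takes in the difference between the groups. The profiles had 0.5 CPM added before the log2, which shrinks the group difference of low genes more than that of high genes. A short distance therefore does not mean an equal fold change. For Ccl4 the nearest were Crabp2, a retinoic acid carrier gene, at 0.158, Lgals3bp at 0.181 and the cytokine gene Lif at 0.243. Mean CPM in control and oxPAPC libraries was 0.841 and 8.38 for Ccl4, 4.24 and 27.7 for Crabp2, 6.88 and 45.3 for Lgals3bp, and 46.9 and 238 for Lif. The fold of each of these genes was thus smaller than that of Ccl4. For Ccl22 they were Tbx21 at 0.278, Ccn4 at 0.322 and Mlkl, a gene of necroptosis, at 0.333. For Ccl3 they were Mlkl at 0.348 and the interferon-induced genes Ifit3b at 0.357 and Oas3 at 0.366, so no gene was as near to Ccl3 as the nearest was to Ccl4. For Xcl1 they were the noncoding gene Gm16224 at 0.0797, the receptor gene Cd160 at 0.105 and the noncoding gene Gm47015 at 0.115.

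Markers of other cells that make these chemokines were measured in the same libraries. Calls in these lists stand beside 6.75% of all genes tested that rose and 6.52% that fell. Of 12 macrophage and monocyte genes 6 are in the table, with a summed level of 4.45 to 5.42 CPM in control libraries, against 9.61 to 11.9 CPM with oxPAPC. The only gene of this list that rose was Mpeg1, from 0.203 ± 0.134 to 4.02 ± 0.583 CPM (SD, n = 4 each), while Csf1r had 0.377 to 1.6 and 0.793 to 3.06 CPM. Of 9 dendritic cell genes 6 are in the table, summing to 61.5 to 95.8 and 84.7 to 141 CPM, mostly from Cd74, which activated T cells can also carry. Flt3 rose from 0.184 ± 0.103 to 1.06 ± 0.220 CPM (SD, n = 4 each) and was the only tested gene of this list that passed. Zbtb46 had 5.80 to 10.2 and 10.6 to 12.6 CPM and did not pass (edgeR adjusted p = 0.182). Batf3, H2-Ab1 and Cd74 did not pass either (0.364, 0.112 and 0.205). Of 7 natural killer genes 4 are in the table, summing to 1.52 to 2.79 and 3.95 to 5.61 CPM, with Klrk1 the one that rose. Klrk1 went from 0.601 ± 0.189 to 2.66 ± 0.404 CPM (SD, n = 4 each). Klrd1 and Tyrobp did not pass (edgeR adjusted p of 0.835 and 0.867). Fcer1g, removed by the filter, had 0.199 to 0.460 and 0.0507 to 0.462 CPM. The CD8 genes Cd8a and Cd8b1 summed to 6.71 to 8.89 and 10.9 to 18.7 CPM, and Cd8a rose. Cd8b1 did not pass, with 5.95 ± 0.845 and 6.32 ± 1.91 CPM (SD, n = 4 each, edgeR adjusted p = 0.84). The 5 B cell genes summed to 10.1 to 15.7 and 15.5 to 18.1 CPM, with overlap between the groups, and Pax5, Ebf1 and Ms4a1 rose. The call of Ms4a1 was lost when control replicate 2 (edgeR adjusted p = 0.0519) or oxPAPC replicate 1 (0.0503) was left out. The other two did not pass: Cd79b had 4.72 to 6.85 CPM in control and a lower 2.83 to 4.09 CPM in oxPAPC libraries (edgeR adjusted p = 0.0983), and Cd79a had a log2 fold change of 0.07. Of 3 gamma delta T cell genes, summing to 0.919 to 2.24 and 1.04 to 2.38 CPM, 1 was tested and rose, Trgc2 (log2 fold change 1.33, edgeR adjusted p = 0.0384). Trgc2 lost its call when control replicate 2 or 4 or any of oxPAPC replicates 2, 3 and 4 was left out (from 0.0597 to 0.125), and with the Gm26917 covariate (0.0798). Trdc, removed by the filter, had 0.266 to 1.32 and 0.0746 to 0.594 CPM. Of 5 mast cell and basophil genes 1 is in the table, Kit, which is also a progenitor gene. Kit fell from 22.5 ± 4.10 to 13.7 ± 2.56 CPM (SD, n = 4 each, edgeR adjusted p = 0.015). Its call was lost with library size scaling (0.119) and without control replicate 4 (0.051) or oxPAPC replicate 1 (0.0529). Mpeg1 and Flt3 reached the level of the filter in 0 control and 4 oxPAPC libraries. Klrk1, Ms4a1 and Trgc2 reached it in 2 and 4, and Pax5 in 3 and 4. These genes passed the filter only through the group in which they were high. The part of such cells in the chemokine values was not tested.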

How the data were processed

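Poly(A)-selected libraries of total RNA were sequenced, per the labels' protocols. Tools named by the submitters' processing notes are DESeq2 1.30.1, featureCounts 2.0.2 and STAR 2.7.8a, with the build GRCm38.p6. The authors deposited 1 table with whole-number counts per gene and library, not normalized, and their own comparison, with normalized mean signal, log2 fold change, test score, p-value and linear ratio, per the file headers. In every row, 2 or more libraries reach 5 counts. Coordinates of the 7 ligand genes equal those of GENCODE M21.

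Counts were filtered with filterByExpr (16434 genes left), scaled by TMM and compared in edgeR 4.0.16 (R 4.3.3) by its quasi-likelihood test, oxPAPC against control, with Benjamini-Hochberg adjustment over all genes tested and a threshold of 0.05. The fit was tested on simulated data. SE is the log2 fold change over the square root of F. The common biological coefficient of variation was 0.207.

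The ligands and all gene lists were chosen with earlier results of these data known. Named are the 7 ligands, their tested receptors, other ligands, up to 6 called genes per list, the 3 nearest patterns (pseudocount 0.5 CPM), defining markers and genomic neighbours; NF-kB subunits, Irf3, Irf8, Sdc1 and genes given to complete a list were added after their values were seen. Alternatives were RLE and library size scaling, no filter, a filter at 5 CPM, DESeq2 1.42.0, limma-voom 3.58.1 without and with quality weights, a replicate block, leaving out Gm26917 and Rn7sk, the Gm26917 share as covariate and leaving out each library. Some genes of the receptor, transcription factor and marker lists are not reported here and are left out of the counts of those lists. Lengths over all exons were added after the data were seen.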

Additional observations from a re-analysis of the deposited data

Results flagged for a closer look

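For the named genes, 93 sets of 4 values were searched for a single library far from the other 3. Chance gives about 1 in 20, or 5, and 3 were found. Cxcl10 had 0.557 CPM in oxPAPC replicate 4, against 0.264 to 0.298 CPM in the others, from 11 counts. Il3 had 0.797 CPM in control replicate 1, against 0.276 to 0.32 CPM. Flt3 had 1.39 CPM in oxPAPC replicate 2, against 0.912 to 0.97 CPM.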

How the results depend on the processing

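Calls of the 7 ligands are counted here as a description only, since they were selected on this comparison. With one library left out, the count of ligands called was 5 to 6, with Ccl5 called without oxPAPC replicate 2. A mean of at least 5 CPM as the filter left 1 ligand tested and called, Ccl22, since it removed the others by construction. That filter left 2 other ligands tested and 0 called by edgeR, with 1 at an unadjusted p under 0.05; DESeq2 with the usual filter called 3. No filter gave 6 other ligands called, the Gm26917 covariate 1, and leaving out a library 1 to 4, with 4 without control replicate 1 and 1 without oxPAPC replicate 4. Of those called without the filter, Ccl20, Ccl9 and Ccl6 are in the deposited data only through the oxPAPC group. Of 4 receptors tested, 1 was called, against 2 with the filter at 5 CPM and 3 with DESeq2. Leaving out a library called 0 to 3 receptors, 0 without control replicate 1 or 2 or oxPAPC replicate 4 and 3 without oxPAPC replicate 2; the cause was not tested. Where edgeR called 0 of 4 receptors, 4, 3 and 3 had an unadjusted p under 0.05. Over all genes, 2182 were called, and 1390 to 2134 with a library left out, the lowest without control replicate 2. Library size scaling moved the median log2 fold change from -0.01 to 0.12 and 71.5% of its calls were higher, against 50.9%. The replicate block called 1453 genes and the same 5 ligands; under this block the call of Cxcl16 was lost (edgeR adjusted p = 0.0554), as were those of Socs1 (0.0908), Nfkbie (0.0898) and Trgc2 (0.106), and Ccl27a passed (0.0277). Deviations of same-numbered libraries correlated at 0.43, -0.046, -0.39 and -0.072. For 2 of 8 libraries the best match was the library of the same number. With so few libraries, these values cannot decide if the numbers pair the samples. For 29 named genes called outside the 7 ligands the call was followed over the alternatives, and 22 kept it in each alternative that tested them. Jun, Junb, Irf9, Stat2 and Gm20743 were called too but are not among the 29. Of these, Junb lost its call without the filter (edgeR adjusted p = 0.0508). Depth limits the precision of Cxcl10, Ccl1 and Ccl5, which rest on 6, 9 and 23 counts in control libraries.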
